A study of Drosophila melanogaster with 3 samples.

Results

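The genes described here encode RNA polymerase II and its general transcription factors. They were taken by symbol from the protein-coding genes of the Ensembl BDGP6 annotation: every symbol starting with Polr2, TfII or Taf followed by a digit, plus Tbp. The rule gave 38 of 13945 protein-coding genes on the 6 chromosome arms with peaks. Of these, 13 were Polr2 genes (called polymerase II subunit genes here), 9 were TfII factor genes and 16 were Tbp and Taf genes. The last are called TFIID genes here, after the complex of the TATA-binding protein and its associated factors (TAFs). The groups were made by symbol, and whether each protein is part of the polymerase or of TFIID in these embryos was not examined.

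The samples were 3 biological replicates of whole Drosophila melanogaster embryos, males and females together, aged 0 to 18 hours. All came from 1 transgenic strain in which Nf-YC, a histone-fold subunit of the CCAAT-binding factor NF-Y, carries eGFP at its C terminus. Chromatin held by the tagged protein was precipitated with an anti-GFP antibody and sequenced (ChIP-seq). The labels give a fragment size range of 200 to 800, and 1 control alignment served all replicates. There was 1 group and no other condition, so binding was described and not compared between conditions. In whole embryos, strong binding in few cells and weak binding in many cannot be told apart.

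RNA polymerase II transcribes all protein-coding genes and starts only where the general factors have assembled on a promoter. TFIID recognises the core promoter, TFIIA and TFIIB steady TBP on DNA and bring in the polymerase with TFIIF, and TFIIE and TFIIH open the DNA. Many TAFs pair through histone folds, the same fold that NF-YB and NF-YC use to form a dimer.

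The stretches below are the DNA under the strongest summits of these genes, without Taf5 and with Polr2D added. They run 75 bp to either side of the summit in the IDR-thresholded set, on the strand of the named gene, from the Release 6 (dm6) genome. That set, named for the irreproducible discovery rate, was the top of the authors' list from pooled replicates. Not every peak in it had a summit in each replicate list. Capitals mark CCAAT on either strand (read as ATTGG on the other), the DNA replication-related element TATCGATA and the motif 1 core GGTCACACT on either strand. Taf5 was left aside, although its signal of 1459 in that set lay between those of Polr2J (2335) and Polr2B (1362). It had CCAAT 18 bp from its summit, so the stretches do not show how often the strongest peaks hold CCAAT. The first 7 stretches are the highest in signal among the other members, and Polr2D, a weak peak, was added after its motifs were seen. They lie at chr2L:17410448-17410598 (Polr2J, minus strand), chr3R:14125600-14125750 (Polr2B, plus), chr2L:10430951-10431101 (TfIIB, plus) and chrX:11570389-11570539 (Polr2A, minus). The others lie at chr3R:27253194-27253344 (TfIIA-L, plus), chr3R:5371644-5371794 (Polr2F, plus), chr3L:21728701-21728851 (Polr2H, plus) and chr3R:18255461-18255611 (Polr2D, minus).
Polr2J: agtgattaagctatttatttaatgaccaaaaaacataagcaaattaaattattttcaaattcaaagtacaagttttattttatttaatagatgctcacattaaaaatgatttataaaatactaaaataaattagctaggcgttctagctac
Polr2B: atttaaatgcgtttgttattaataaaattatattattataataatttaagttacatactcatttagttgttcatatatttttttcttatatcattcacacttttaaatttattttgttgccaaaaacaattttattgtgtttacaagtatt
TfIIB: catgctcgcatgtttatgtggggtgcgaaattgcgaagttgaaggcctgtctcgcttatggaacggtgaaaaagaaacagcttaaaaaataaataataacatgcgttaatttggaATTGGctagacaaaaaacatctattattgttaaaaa
Polr2A: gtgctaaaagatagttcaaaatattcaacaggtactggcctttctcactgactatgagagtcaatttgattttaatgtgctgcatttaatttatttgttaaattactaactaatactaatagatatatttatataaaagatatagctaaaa
TfIIA-L: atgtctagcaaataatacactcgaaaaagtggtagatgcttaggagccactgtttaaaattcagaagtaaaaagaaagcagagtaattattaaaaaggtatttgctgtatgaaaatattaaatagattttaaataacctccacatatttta
Polr2F: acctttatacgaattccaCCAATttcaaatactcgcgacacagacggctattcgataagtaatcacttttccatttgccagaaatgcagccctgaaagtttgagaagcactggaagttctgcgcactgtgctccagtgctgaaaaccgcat
Polr2H: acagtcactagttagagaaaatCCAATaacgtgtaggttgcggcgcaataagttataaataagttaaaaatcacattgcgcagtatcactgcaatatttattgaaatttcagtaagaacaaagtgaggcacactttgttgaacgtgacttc
Polr2D: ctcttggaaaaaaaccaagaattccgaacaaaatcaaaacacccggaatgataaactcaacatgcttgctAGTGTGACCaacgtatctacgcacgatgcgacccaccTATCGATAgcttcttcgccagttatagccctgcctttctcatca

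The stretches at Polr2J, Polr2B and Polr2A held none of the motifs in capitals and had a G+C content of 21.2%, 16.6% and 25.2%. Those at TfIIB, Polr2F and Polr2H each held 1 CCAAT, 42, 55 and 51 bp from the summit. At TfIIA-L the nearest CCAAT lay 76 bp from the summit, at the edge of the printed stretch. The Polr2D stretch held TATCGATA 36 bp and GGTCACACT 1 bp from its summit, and no CCAAT.

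Genes with a summit no further than 500 bp from an annotated transcription start site (TSS) were counted as bound. In the IDR-thresholded set 19 of the 38 genes were bound (50%), against 30.6% of all protein-coding genes. The TfII factors had the highest share, with 7 of 9 bound, followed by the polymerase subunits with 7 of 13. Of the 16 TFIID genes 5 were bound (31.2%), a share near that of all genes. The count depended on which replicates had to hold the peak and on shared promoters. With replicate 2 left out, a peak was kept where replicates 1 and 3 each had a summit within 100 bp of its own among their 7476 strongest peaks. Then 8 genes stayed bound (21.1%, against 21.3% of all genes), a share at the background. With replicate 1 or replicate 3 left out in the same way the count was 13 (34.2%, against 21.7% and 23.6%). The 100 bp limit removed TfIIEalpha without replicate 2 and without replicate 3, since its replicate 1 summit was 108 bp away. When a summit was credited only to the gene with the nearest TSS, 12 members were bound (31.6%, against 23.9%).

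In the pooled list, 22 members had a summit (57.9%, against 46.1% of all genes). The 3 genes added there were Polr2G, Taf9 and Taf12, with signals of 112, 223 and 235. All were under the 246 of the weakest peak in the IDR-thresholded set, as they had to be, since that set is the top of the pooled list. The lists of replicates 1, 2 and 3 gave summits at 25, 25 and 21 members, against 47.3%, 48.7% and 48.9% of all genes. At least 1 replicate had a summit at 31 members (81.6%, against 60.1% of all genes), and all 3 had one at 16 (42.1%, against 36.7%). The last share was close to that of all genes. The replicate lists also held weak entries. Among the 16, the deposited −log10 q-value in replicate 3 was 0.308 at Taf9 and 0.722 at TfIIEbeta, against 3.97 at Polr2A. Among the 31, the replicate 1 summits at Polr2C and Polr2K had 0.811 and 0.619, against 4.33 at Polr2A. The shares of all genes were counted in the same lists. No list held a summit within 500 bp of the remaining 7: Polr2M, TfIIA-S-2, TfIIFbeta, Taf1, Taf6, Taf11 and Taf12L.

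**Figure D1:**
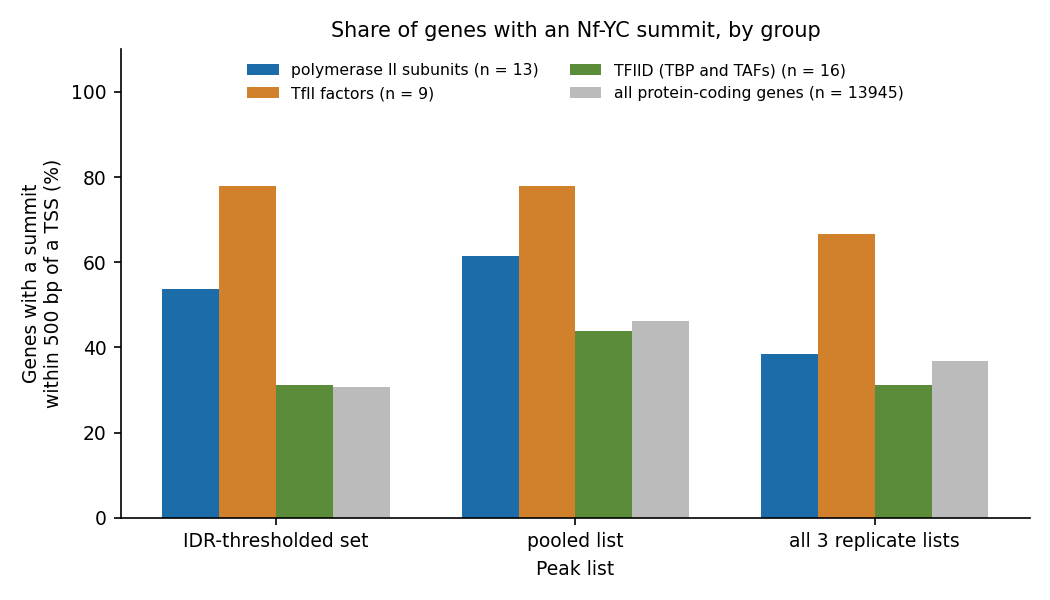
Percentage of genes with a summit within 500 bp of a TSS (y axis) in each of 3 kinds of peak list (x axis), for the polymerase II subunits, the TfII factors, the TFIID genes and all protein-coding genes. In the IDR-thresholded set the TfII factors reach 77.8% and the TFIID genes 31.2%, next to 30.6% of all genes.

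**Figure D2:**
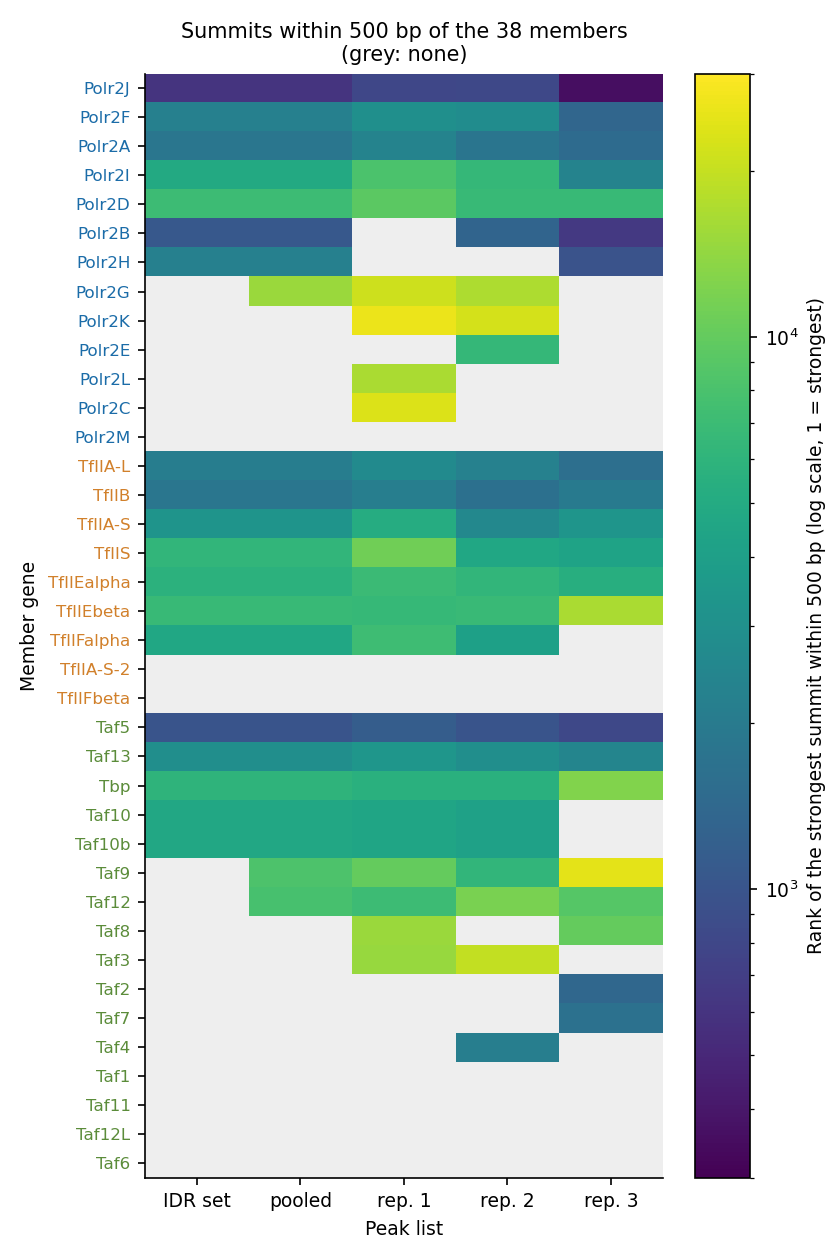
Rank of the strongest summit within 500 bp of each of the 38 members (rows) in each peak list (columns), on a log colour scale where 1 is the strongest peak and grey means no summit. Polr2J has the best rank of the members in every list, from 358 in replicate 3 to 816 in replicate 2, and Taf2 and Taf7 have a summit in replicate 3 alone.

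Signals below are the authors' peak scores, which have no stated unit and were not scaled between lists, so the SD over replicates also holds differences in scale. Median signals were 61.6, 45.3 and 29.0 in the lists of replicates 1, 2 and 3.

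Among the polymerase subunits, Polr2J, one of the pair of subunits on which the enzyme is assembled, had the strongest peak of all members. Its signal was 868, 579 and 902 in replicates 1, 2 and 3, a mean of 783 ± 178 (SD, n = 3), at ranks 797, 816 and 358. The pooled signal was 2335, rank 604 of the 7476 peaks. The peak (2L, 17410278 to 17410801) had its summit 117 bp upstream of Polr2J and 118 bp from the TSS of CG15141 on the other strand, so it cannot be given to either gene by distance.

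Polr2B, the second largest subunit, had signals of 367 and 490 in replicates 2 and 3, at ranks 1330 and 644. In replicate 1 the nearest summit was 16737 bp away. Its pooled signal was 1362 (3R, 14125457 to 14125883), with the summit 116 bp upstream of Polr2B and 127 bp from 140up. The gene thus had the third strongest pooled peak of the members and none in the list of replicate 1, which had the highest median signal. Absence from that list does not show that replicate 1 lacked signal there, and this was not tested.

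Polr2A encodes the largest subunit, which carries the C-terminal repeat domain. Its signals were 328, 285 and 233 in replicates 1, 2 and 3, a mean of 282 ± 47.4 (SD, n = 3). The summit (X, 11570464) lay 138 bp upstream, in intergenic sequence, and 157 bp from CG11699. A second summit further upstream had signals of 156 in replicate 1, 44.7 in replicate 2 and 166 in the pooled list, and it was not in the IDR-thresholded set.

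Polr2F, a subunit common to all nuclear RNA polymerases, had signals of 273, 201 and 251, a mean of 242 ± 36.8 (SD, n = 3). The SD was 15.2% of the mean, but 41.6% once each signal was divided by the median of its list, where replicate 3 stood highest. The summit (3R, 5371719) lay 76 bp upstream, inside introns of CG31542 and CG34277, and the nearest TSS of another gene was 1415 bp away.

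Polr2H, also common to all nuclear polymerases, had a peak in the list of replicate 3 alone, with a signal of 338 at rank 969. The nearest summits in replicates 1 and 2 were 41735 and 41739 bp away. The pooled signal was 711, and the summit (3L, 21728776) lay in the 5′ UTR of CG11247, 30 bp from that gene's TSS and 156 bp upstream of Polr2H. Among the replicate lists, only that of replicate 3 held the Polr2H peak. Peak lists do not show whether replicates 1 and 2 had signal there. The pooled signal was near the 713 of Polr2F, which had a summit in all 3 lists. Why the peak was missing from the other lists was not tested.

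Polr2I and Polr2D had weaker peaks. At Polr2I, a small subunit that takes part in start site choice in yeast, signals were 111, 105 and 159 (mean 125 ± 29.6, SD, n = 3), with the summit 180 bp upstream and 320 bp from su(Hw). At Polr2D, part of the stalk of the enzyme, they were 103, 103 and 62.4 (mean 89.3 ± 23.3, SD, n = 3), and the pooled signal of 260 ranked 7077. The Polr2D summit was 49 bp upstream of both Polr2D and Ada2a, which share that TSS. It was 6 bp from a TSS of Tgs1 and of moi on the other strand.

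Of the 6 subunit genes outside the set, Polr2G, the partner of Polr2D in the stalk, had signals of 40.2 and 38.8 in replicates 1 and 2 and none in replicate 3. Polr2K, a small subunit common to all nuclear polymerases, had 29.1 and 28.1 in the same replicates, with the summits at 239 and −326 bp from the TSS, so they were not at the same place. Polr2C, the assembly partner of Polr2J, had 1 summit, of signal 34.4 in replicate 1. The common subunit Polr2L likewise had 1, of 53.8 in replicate 1. The common subunit Polr2E had 1, of 105 in replicate 2 at rank 6447. Polr2M had none.

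Among the TfII factors, TfIIB, which links TBP to the polymerase, was the only member with more than 1 summit in the IDR-thresholded set. That is 1 of the 19 bound members (5.26%), against 21.1% of all bound genes. The stronger one (2L, 10431026) had signals of 357, 303 and 186, a mean of 282 ± 87.0 (SD, n = 3), and lay 312 bp upstream of TfIIB and 108 bp from Bug22. The weaker one (2L, 10431230) had signals of 140 and 171 in replicates 1 and 2, and lay 108 bp upstream of TfIIB and 312 bp from Bug22. In replicate 3 a single summit lay between them, at −240 bp from the TfIIB TSS, with a signal of 186. It was the match counted for the stronger summit.

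TfIIA-L, the precursor of the large subunits of TFIIA, had signals of 291, 238 and 218, a mean of 249 ± 37.7 (SD, n = 3). The summit (3R, 27253269) lay 161 bp upstream of the second of its 2 annotated TSSs, in an intron of the gene's longer transcript, and 87 bp from pll, a kinase of the Toll pathway. With only the 5′-most TSS of each gene, TfIIA-L was not bound and the count of members was 18. TfIIA-S, the small subunit, had signals of 176, 213 and 117 (mean 169 ± 48.3, SD, n = 3) at a summit 76 bp upstream with no TSS of another protein-coding gene within 1000 bp. No list had a summit near the paralogue TfIIA-S-2, where the nearest was at −1562 bp, in replicate 3.

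Both subunits of TFIIE were bound and 1 of the 2 subunits of TFIIF. TfIIEalpha had summits of signal 109 and 76.9 in replicates 2 and 3 within 100 bp of the pooled one, which lay 134 bp upstream. In replicate 1 the summit, of signal 138, was 108 bp from it. TfIIEbeta had signals of 144, 100 and 26.4. The list medians fell in the same order, as did the signals at Tbp, Polr2A, TfIIA-L, the stronger TfIIB summit, Taf13 and Taf5. TfIIFalpha had 133 and 152 in replicates 1 and 2 and no summit within 500 bp in replicate 3. Its summit lay in the 5′ UTR of CG1024, 10 bp from that TSS and 149 bp upstream of TfIIFalpha. At TfIIFbeta the nearest summit of every list was 6480 to 6670 bp away. TfIIS, an elongation factor that helps a stalled polymerase cut its transcript, had signals of 86.8, 137 and 92.4 (mean 105 ± 27.6, SD, n = 3), with the summit 2 bp upstream of the TSS.

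Among the TFIID genes, Taf5, a scaffold subunit with WD repeats, had the strongest peak. Its signals were 604, 483 and 391 in replicates 1, 2 and 3, a mean of 492 ± 107 (SD, n = 3), at ranks 1159, 984 and 820. The summit (2R, 10879834) was 161 bp upstream of Taf5 and 140 bp from Pex6, a peroxisome biogenesis gene on the other strand. Taf13, a histone-fold TAF, had signals of 246, 194 and 155 (mean 198 ± 45.9, SD, n = 3). That summit (2L, 20094016) lay in the 5′ UTR of nesd, 44 bp from its TSS and 167 bp upstream of Taf13. No summit lay within 500 bp of Taf11, the histone-fold partner of Taf13.

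Taf10 and Taf10b, paralogues transcribed in opposite directions from TSSs 45 bp apart, shared 1 peak (2L, 2767553 to 2768032). Its signals were 196 and 151 in replicates 1 and 2, and the nearest summit in replicate 3 was 1728 bp away. The summit was in the 5′ UTR of Taf10b, 52 bp downstream of its TSS and 97 bp upstream of Taf10. In the IDR-thresholded set no other member had its summit downstream of the TSS.

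Tbp encodes the TATA-binding protein. Its signals were 165, 118 and 33.9 (mean 106 ± 66.5, SD, n = 3), and it ranked 5589, 5607 and 12565. The summit (2R, 21687666) was 24 bp upstream with no TSS of another protein-coding gene within 500 bp. Replicate 3 was low at Tbp and at TfIIEbeta relative to both other lists, and the SDs there were 62.9% and 65.8% of the mean, against a median of 23.7% over the 13 member summits with a match in all 3 replicates. After division by the median of each list they were 39.7% and 43.4%, against a median of 25.3%, and Polr2I (62.1%) and Polr2J (52.8%) varied more.

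Taf9 and Taf12, both histone-fold TAFs, had summits in all 3 replicates but were not in the IDR-thresholded set. Signals were 94.7, 108 and 18.8 at Taf9, the last at rank 24980 of 30000 with a −log10 q-value of 0.308. At Taf12 the summit nearest to the TSS had signals of 134, 58.0 and 47.0. The pooled Taf12 summit lay 33 bp upstream of Taf12 and 20 bp from Ho. Taf3, Taf8, Taf2, Taf4 and Taf7 had summits in 1 or 2 replicate lists and none in the pooled list. Taf2 and Taf7 had signals of 250 and 211 in replicate 3, at ranks 1385 and 1682, and Taf4 had 247 in replicate 2, at rank 2157. The Taf2 summit lay 248 bp upstream of Taf2 and 169 bp from CalpB. In replicate 1 the further summits of Taf3 (431 bp) and Taf8 (472 bp) were nearer to CG33941 (238 bp) and Mvb12 (184 bp). The summits at Taf2, Taf7 and Taf4 were among the 2500 strongest peaks of their replicates. Over all peaks of that strength, 0.320%, 0.480% and 3.80% in replicates 1, 2 and 3 had no pooled summit within 500 bp. The 4 genes with no summit in any list included Taf1, the largest TAF, and Taf12L, a testis paralogue of Taf12.

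**Figure D3:**
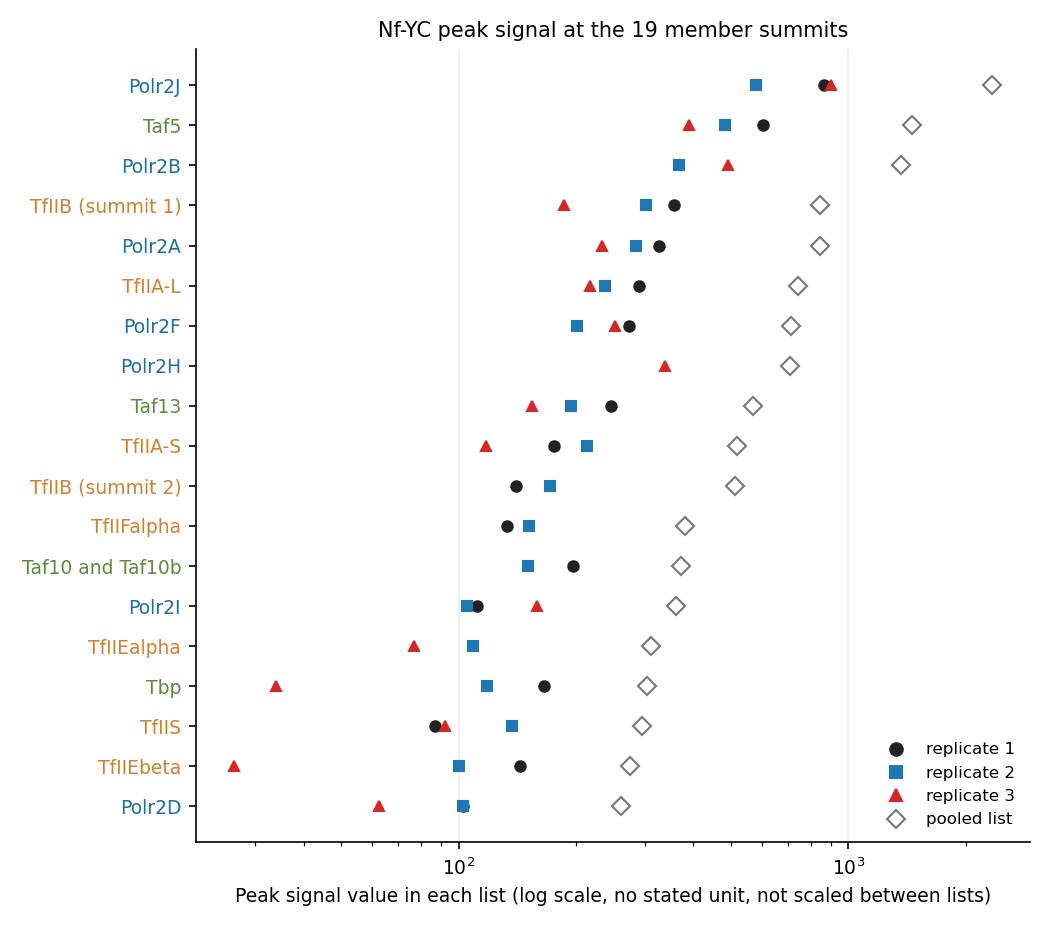
Peak signal value in each list (x axis, log scale) at the 19 distinct member summits of the IDR-thresholded set (y axis, ordered by pooled signal), with filled symbols for replicates 1, 2 and 3 and open diamonds for the pooled list. A missing symbol means no summit within 100 bp, as at Polr2B in replicate 1 and at Polr2H in replicates 1 and 2. Replicate 3 falls to 33.9 at Tbp and 26.4 at TfIIEbeta.

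Of the 19 distinct member summits, 13 (68.4%) had a summit within 100 bp in all 3 replicate lists, against 76.9% of the 3985 promoter peaks. Replicate 1 lacked one for Polr2B, Polr2H and TfIIEalpha, replicate 2 for Polr2H, and replicate 3 for the weaker TfIIB summit, TfIIFalpha and the Taf10 pair. These were 15.8%, 5.26% and 15.8% of the member summits, against 5.17%, 5.47% and 15.5% of promoter peaks. The shares in replicates 2 and 3 were thus near those of all promoter peaks. More than 10000 bp from any summit of replicate 1 were 2 of the 19, Polr2B and Polr2H, against 0.527% of promoter peaks. In replicate 2 it was Polr2H, against 0.427% of promoter peaks, and in replicate 3 there was no such case, against 0.627%.

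The bound members were alike in where their summits lay. Taking the strongest summit of each gene, 18 of 19 lay upstream of the TSS, against 83.1% of the 4265 bound genes. Between 0 and 200 bp upstream were 17 of 19 (89.5%), against 57.8%. The median position was −117 bp for the members and −120 bp for all bound genes, so the centres were close and the spread differed. None lay more than 312 bp from its TSS, and the nearest summit beyond the 500 bp limit was 1433 bp away, at Taf12. The same 19 genes were bound with a limit of 250 bp or 1000 bp. The median pooled signal was 517 for the members and 532 for all bound genes. These shares are descriptions, and no difference between the members and other genes was tested.

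Many of these genes stood back to back with another. A TSS on the opposite strand within 500 bp upstream was annotated for 21 of the 38 members (55.3%), against 27.4% of all genes. Of those 21, 13 were bound (61.9%), against 52.6% of all such genes. Of the other 17 members, 6 were bound (35.3%), against 22.3%. For 8 of the 19 bound members (42.1%) the strongest summit lay closer to a different gene's TSS, against 24.8% of bound genes. Those neighbours were Tgs1 and moi at Polr2D, CG11247 at Polr2H, pll at TfIIA-L, Bug22 at TfIIB and CG1024 at TfIIFalpha. At Taf5, Taf13 and Taf10 they were Pex6, nesd and Taf10b.

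At 4 of the 5 members with the highest signals the summit lay near the middle of the interval between divergent TSSs. At Polr2J, Taf5, Polr2B and Polr2A the intervals were 235, 301, 243 and 295 bp, and the summit lay 49.8%, 53.5%, 47.7% and 46.8% of the way from the member to its neighbour. The exception, TfIIB, had its summits at 74.3% and 25.7% of a 420 bp interval. At the shorter intervals the summit fell past the neighbour's TSS. This held at Polr2D (43 bp), Polr2H (126 bp), TfIIFalpha (139 bp), Taf13 (123 bp) and Taf10 (45 bp). Of the 13 bound members with a divergent neighbour, 7 had the summit between the TSSs (53.8%), 5 in the neighbour (38.5%) and 1 in the member (7.69%). The summit shared by Taf10 and Taf10b was counted for both genes, in the neighbour for Taf10 and in the member for Taf10b. Over the 1870 bound genes with such a neighbour upstream of the TSS nearest to the summit, 77.9% had it between them, 10.8% in the neighbour and 11.3% in the member.

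**Figure D4:**
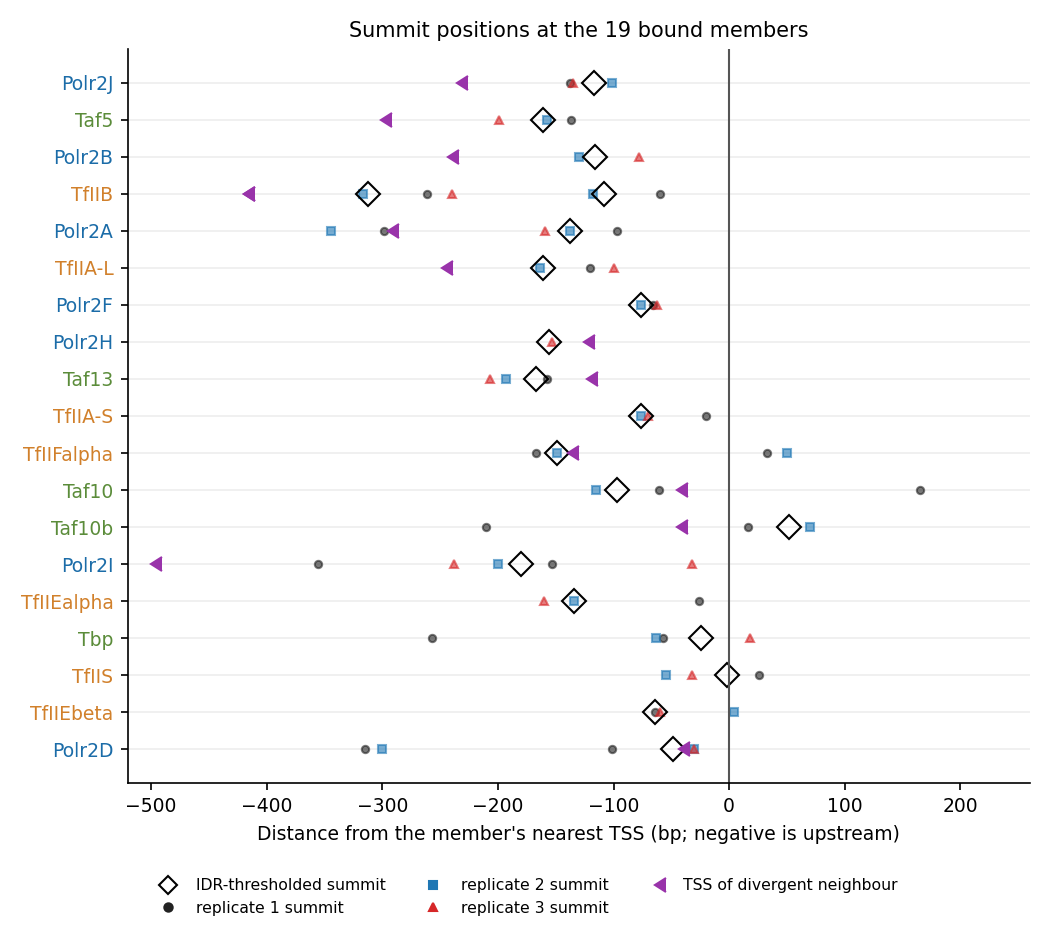
Distance of summits from the nearest TSS of each bound member (x axis, bp, negative is upstream), with members ordered by pooled signal. Open diamonds are IDR-thresholded summits, small symbols are replicate summits and purple arrowheads are the TSS of a divergent neighbour. At Polr2J, Taf5, Polr2B and Polr2A the diamond sits about midway between the arrowhead and the member's TSS at 0.

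Base composition varied widely among the summits. Within 75 bp of the summit the G+C content of the 19 summits ranged from 16.6% to 45.7% with a median of 35.1%, against a median of 39.1% over the 3985 promoter peaks. Promoter peaks in the strongest and the second 25% of the set had medians of 35.8%, close to that of the members, and those in the third and the weakest 25% had 40.4% and 41.7%. Polr2J, Taf5 and Polr2B, the members with the highest signals, had the lowest values, 21.2%, 19.2% and 16.6%. Only 2.53%, 1.03% and 0.226% of promoter peaks had less. TfIIB, next in signal, had 35.1% at its stronger summit, equal to the members' median. Polr2I, a weaker peak, had 25.2%, the same as Polr2A. The highest values were 45.7% at TfIIA-S and 44.4% at Polr2F and Polr2D, so peaks of middle and low signal were both among them. Of the 290 promoter peaks with a signal above that of Polr2J, 69.7% had more G+C than any member summit, against 30.5% of all promoter peaks. How base composition bears on the signal was not tested.

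**Figure D5:**
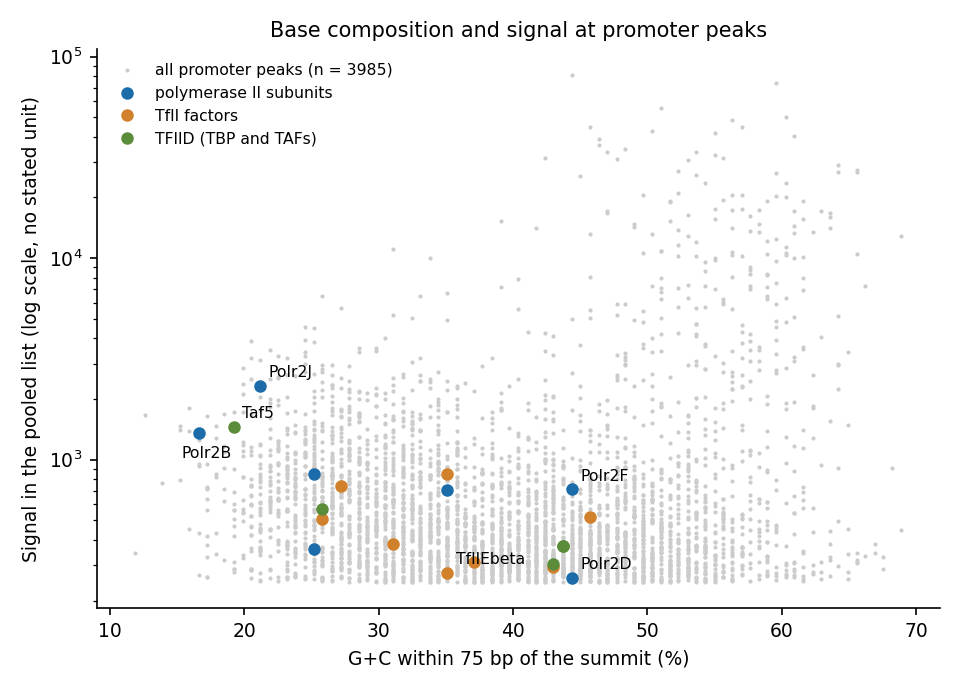
G+C content within 75 bp of the summit (x axis, %) against the signal in the pooled list (y axis, log scale) for all 3985 promoter peaks (grey) and the member summits (coloured by group). The members lie between 16.6% and 45.7%, with Polr2J, Taf5 and Polr2B at the AT-rich end, and none lies among the strong peaks of high G+C.

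CCAAT, the sequence NF-Y is known to bind, was found on either strand within 100 bp of 7 of the 19 member summits (36.8%), against 37.1% of all promoter peaks. The 7 were those of Taf5, the stronger TfIIB summit, TfIIA-L, Polr2F, Polr2H, TfIIFalpha and the summit shared by Taf10 and Taf10b. The nearest was 18 bp from the summit, at Taf5. Neither Polr2J nor Polr2B had one within that distance. Within 50 bp the count was 3 (15.8%, against 21.3%), and within 250 bp it was 17 (89.5%, against 66.5%). From 250 bp before to 50 bp after the 5′-most TSS, CCAAT was in 9 of 19 promoters of bound members and 5 of 19 of the others, against 46.7% of all protein-coding genes.

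Other promoter sequences were searched on both strands in the same 100 bp. TATAAA was near 7 of 19 summits (36.8%, against 29.6% of promoter peaks) and GAGAG near 4 (21.1%, against 28.6%). TATCGATA was near 2, those of Polr2D and Tbp (10.5%, against 7.43%), and GGTCACACT near 1, at Polr2D (5.26%, against 4.39%). CAGCTG was near 1, at TfIIEbeta (5.26%, against 12.7%). With so few summits, 1 more or fewer moves each share by 5.26 percentage points. No motif searched contains another.

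The rest of the transcription machinery was described from a list of 33 genes that are not members. In the IDR-thresholded set 13 of them were bound (39.4%, against 30.6% of all genes). Of 17 pausing and elongation genes 9 were bound, including Nelf-E (pooled signal 1150), NELF-B (568), CycT (541) and hyx (444). The TSS of RpL14 was nearer to the Nelf-E summit, 20 against 107 bp. Of 12 genes for TFIIH, its kinase module and TBP relatives, 4 were bound: the helicase Xpd (763), Cdk7 (372), CycH (337) and Ssl1 (36550). The Ssl1 summit lay 80 bp upstream of Ssl1 and 25 bp from the TSS of Chro, and at Cdk7 the TSS of snf was nearer. The TBP relatives Trf and Trf2 were not bound. None of the 4 testis TAF genes nht, can, mia and sa was bound, nor was the member Taf12L. Of the 17 subunit genes of polymerases I and III, 7 were bound (41.2%), 2 of 7 Polr1 genes and 5 of 10 Polr3 genes. Polr3E had the highest signal among them, 2640. These shares were not tested against that of the 38 members.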

How the data were processed

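ChIP-seq peaks of eGFP-tagged Nf-YC from 3 embryo replicates were used as the authors deposited them. Per the labels the build is dm6. The deposited notes derive each replicate list from its own alignment and 1 control alignment, the pooled list from all replicates, and the IDR-thresholded set from those lists. No aligner, caller or IDR cutoff is named: these were not given in the sources used here. Each peak has a signal value, a score by the authors' caller, and a deposited −log10 q-value. The q-value was quoted for some peaks but not used to select any. The IDR-thresholded set held 7476 peaks, identical to the top of the pooled list, and every other list held 30000. Library depth is unknown, so no interval resting on it is given.

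Summits were placed against the TSSs of protein-coding transcripts in Ensembl release 115, and all 38 members had the same span in the RefSeq table. Sequence was read from the Release 6 genome. Replicate values are the strongest summit within 100 bp of the IDR-thresholded one. Python 3.11.15 and NumPy 2.4.6 were used, with the search checked on planted summits. No test was run, since the design has 1 group and genes are not replicates. Every member was named, with the neighbour where its TSS was nearer or equally near. The members and lists were chosen with earlier results of these data known. In the list of other machinery, e(y)1 and rye were the members Taf9 and Taf12L and were left out. Coordinates are 1-based.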

Additional observations from a re-analysis of the deposited data

How the results depend on the processing

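The count of 19 bound members fell to 10 in the strongest 50% of peaks, to 5 in the strongest 25% and to 12 when a summit counted only for the nearest gene. The shares of all genes were then 17.7%, 8.69% and 23.9%. Leaving out each replicate gave 8 to 13, in peak sets that are stricter by construction (both other replicates had to match within 100 bp). The same 8 members stayed each time: Polr2A, Polr2F, Polr2J, TfIIA-L, TfIIA-S, TfIIB, Taf5 and Taf13. Other windows, the pooled list and 1 TSS per gene gave 18 to 22. The 16 members bound in all replicate lists fell to 9 when only the 7476 strongest peaks of each were used, and lay between 17 and 22 over pairs of replicates. The median SD of a member's replicate signal, 23.7% of the mean, was 25.3% after division by the median of each list and 3.16% on percentile ranks, a compressed scale. With replicate summits matched within 200 bp, 18 of 19 member signals moved by less than 1 SD, the exception being the weaker TfIIB summit (156 against 238). Counts of CCAAT depended on the distance searched: 3 summits within 50 bp, 7 within 100 bp and 17 within 250 bp. No paired analysis was possible because there is 1 group.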
